A study of Mus musculus with 6 samples.

Results

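The glucocorticoid receptor Nr3c1 and 9 genes of its pathway were followed in mouse liver. Zbtb16, Fkbp5, Tsc22d3, Sgk1, Cdkn1a and Errfi1 are genes that glucocorticoids induce, Hsd11b1 and Serpina6 handle the hormone, and Lcn13 encodes a secreted lipocalin. They were taken by name, as all probes whose RefSeq accession belongs to 1 of the 10 genes. This rule used no measured value, but the genes were chosen with earlier results of these data known. All 10 genes were on the array, with 15 probes, out of 22911 genes with a symbol. Lcn13 was found under its current RefSeq symbol Obp2a.

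The livers came from male mice that were 12 weeks old at the start and ate their chow freely. The 3 control mice received regular chow alone, and the 3 soy mice received chow of 75% regular food and 25% soy bean, both for 4 weeks. Strain, genotype and the hour at which the livers were taken are not given in the sources used here. Each mouse gave RNA of the right hepatic lobe to 1 one-colour Agilent array. Control 1, control 2 and soy 1 share slide 1, soy 2 was alone on slide 2, and control 3 and soy 3 share slide 3. Of 59305 spots per array, the 3 control arrays had 37010, 36366 and 38163 well above background, and the 3 soy arrays 31308, 31988 and 32498. All values below are normalized signals or their differences on the log2 scale, and with 3 mice per group their number limits the precision.

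Corticosterone, the main glucocorticoid of mice, enters cells and binds the receptor, which waits in the cytoplasm in a complex with Hsp90 and its helpers. The loaded receptor moves to the nucleus, binds response elements in DNA and raises or lowers the transcription of its targets. In the liver it is known for driving gluconeogenesis and amino acid breakdown, and release of the hormone follows a daily rhythm and responds to stress.

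Promoter stretches of 3 genes are shown, since the receptor is known to bind paired half-sites in DNA and these stretches differ in how many they hold. Each is the 250 bases before a start site of the gene in RefSeq (GRCm38.p6), written 5′ to 3′ on the gene's strand, and capitals mark AGAACA or TGTTCT, which are each other's reverse complement. Sgk1 has 6 such stretches, 3 of them with no half-site, and Tsc22d3 has 3, of which 2 hold none. For both the stretch with the most half-sites is shown. The Sgk1 stretch is chr10:21993640-21993889 on the plus strand, that of Tsc22d3 is chrX:140600523-140600772 on the minus strand, and that of Fkbp5 is chr17:28486150-28486399 on the minus strand.
Sgk1: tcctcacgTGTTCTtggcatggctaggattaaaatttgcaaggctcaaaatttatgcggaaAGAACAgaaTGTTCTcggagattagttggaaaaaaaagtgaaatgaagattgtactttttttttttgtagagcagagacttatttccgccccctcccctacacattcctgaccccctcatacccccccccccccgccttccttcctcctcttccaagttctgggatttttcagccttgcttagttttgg
Tsc22d3: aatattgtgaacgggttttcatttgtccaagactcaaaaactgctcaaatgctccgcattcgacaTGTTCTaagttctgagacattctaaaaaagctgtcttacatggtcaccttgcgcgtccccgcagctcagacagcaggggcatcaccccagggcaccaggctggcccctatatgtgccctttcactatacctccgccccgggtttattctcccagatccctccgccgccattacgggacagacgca
Fkbp5: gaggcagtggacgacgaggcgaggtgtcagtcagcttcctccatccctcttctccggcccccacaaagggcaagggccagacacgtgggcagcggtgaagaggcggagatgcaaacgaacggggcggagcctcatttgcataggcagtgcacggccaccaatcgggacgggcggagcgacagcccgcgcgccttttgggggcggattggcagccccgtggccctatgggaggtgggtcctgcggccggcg
Among 32851 promoter stretches of this length, 5284 (16.1%) held such a half-site. Of the 10 genes, 7 had the 16 stretches counted here, and 4 stretches, 3 of Sgk1 and 1 of Tsc22d3, held at least 1. No stretch was counted for Nr3c1, Zbtb16 or Serpina6. For the 10 genes, any stretches on 1 chromosome were left out, which was not done for the 32851. The counts for the 10 genes and the 16.1% thus differ in scope. The Sgk1 stretch shown holds AGAACA and TGTTCT 3 bases apart, at 189 and 180 bases before the start, an arrangement found in 3 of all stretches (0.00913%). The single half-site of Tsc22d3 begins 185 bases before the start, and the Fkbp5 stretch holds none. A match of letters is a description of these windows and says nothing of binding elsewhere.

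A gene passed where limma gave 1 of its probes a Benjamini-Hochberg adjusted p below 0.05 and its fold change lay outside 0.66 to 1.5. None of the 10 genes passed, beside 122 of all genes (0.532%). Of the 10, 4 were lower on every soy array than on any control array. These were Zbtb16, Fkbp5, Errfi1 and Hsd11b1. Non-overlapping groups were found for 20.4% of all genes in either direction and for 10.8% with soy lower (9.66% with soy higher). At an unadjusted p under 0.05, limma counted the same number, 4 of 10, beside 14.2% of all genes. On the brightest probe 8 genes were lower and 2 higher in soy, and the median difference (soy minus control) was -0.20, where all genes had -0.0057. With 1 array left out the median was -0.31, -0.43 and -0.15 for the 3 control arrays in order, and -0.36, -0.14 and -0.48 for the 3 soy arrays. In slides 1 and 3 taken alone this median was -0.29 and -0.26, with 6 of 10 genes lower in each, and with slide as a block it was -0.13, with 5 of 10 lower. In bulk liver, less RNA per cell and fewer cells of the type that makes it cannot be told apart.

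**Figure D1:**
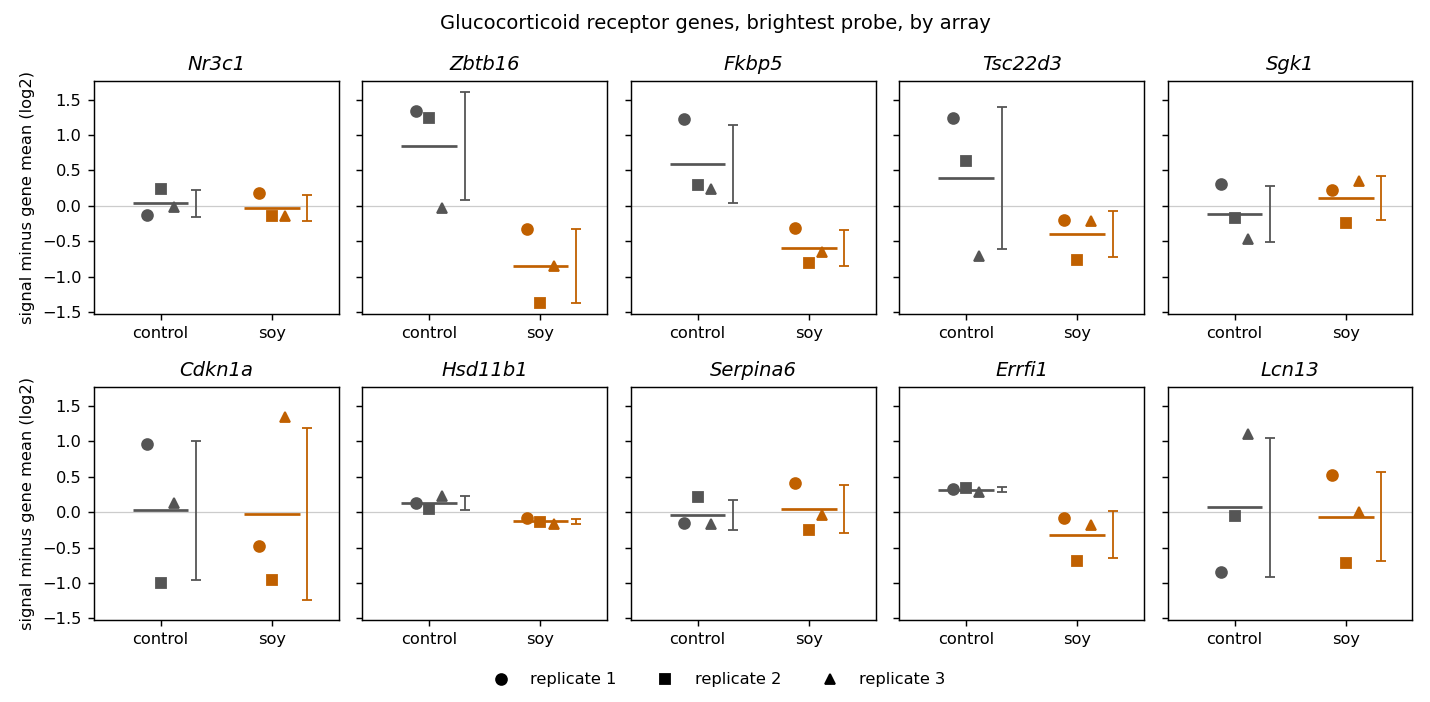
Normalized log2 signal of the brightest probe of each gene on each array, minus the mean of that gene over the 6 arrays (y axis), for control and soy livers; points are arrays, horizontal bars are group means and brackets are ± 1 SD (n = 3). The groups are apart for Zbtb16, Fkbp5, Errfi1 and Hsd11b1, and they overlap for the other 6 genes.

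The receptor itself showed no difference beyond the spread between mice. The brighter Nr3c1 probe (NM_008173) read 13.10, 13.46 and 13.21 in control and 13.40, 13.08 and 13.08 in soy livers. High and low arrays occurred in both groups, and the difference was -0.068 (SE 0.14, adjusted p = 0.892), 0.12 within slide 1 and -0.13 within slide 3. The dimmer probe of the same transcript read 11.39, 12.38 and 12.24 against 12.48, 12.61 and 12.25, a difference of 0.44 (SE 0.25, adjusted p = 0.569). The sign was opposite, control 1 was low on this probe, and neither probe separated the groups. The sign of the brighter probe turned without control 2 (0.035) and with slide as a block (0.014).

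The 2 genes that set the local and circulating hormone gave small differences. Hsd11b1, the enzyme that regenerates corticosterone from its inactive form inside hepatocytes, read 16.22, 16.14 and 16.33 in control and 16.01, 15.96 and 15.94 in soy livers (NM_008288). Every soy array was below every control array, by 0.26 on average (-0.26, SE 0.097, adjusted p = 0.363), with -0.17 within slide 1 and -0.39 within slide 3. With 1 array left out the differences ranged from -0.30 to -0.21. Serpina6, the corticosteroid-binding globulin that the liver secretes into blood, read 15.04, 15.40 and 15.03 against 15.60, 14.94 and 15.15 (NM_007618). The groups overlapped, the difference was 0.075 (SE 0.19, adjusted p = 0.914), and without soy 1 it was -0.11.

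Of the 10 genes, Zbtb16 had the largest difference on its brightest probe. Zbtb16, also known as PLZF, is a zinc finger transcription factor. In control livers it read 13.04, 12.94 and 11.67, and in soy livers 11.38, 10.33 and 10.85 (NM_001033324). Control 1 and control 2 were high and soy 2 was low, while control 3 stood close to soy 1, yet the groups did not overlap. The soy mean was 3.24-fold lower, a difference of -1.70 (SE 0.40, adjusted p = 0.153). The dimmer probe, well above background on 2 of 3 soy arrays, read 8.89, 8.71 and 8.08 against 7.85, 7.02 and 7.17. It also gave no overlap and a difference of -1.21 (SE 0.27, adjusted p = 0.141). Within slide 1 the brighter probe differed by -1.61 and within slide 3 by -0.82. Without control 3 the difference was -2.14 and passed (adjusted p = 0.0495), while the other fits with 1 array left out gave -1.96 to -1.44 and did not.

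Fkbp5, an Hsp90-binding protein that damps the receptor and is induced by it, followed. Its brighter probe (NM_010220) read 14.06, 13.13 and 13.07 in control and 12.52, 12.03 and 12.18 in soy livers. Control 1 was well above the other control arrays, and all soy arrays lay below the lowest control. The soy mean was 2.26-fold lower, a difference of -1.18 (SE 0.27, adjusted p = 0.146), with -1.07 within slide 1 and -0.89 within slide 3. The dimmer probe read 11.15, 10.09 and 9.56 against 9.36, 8.64 and 9.20, with no overlap and a difference of -1.20 (SE 0.38, adjusted p = 0.288). Without control 1 the brighter probe still gave -0.86 (adjusted p = 0.144), the smallest difference among the alternatives. With Agilent's processed signal in place of the median signal, Fkbp5 and Zbtb16 both passed (adjusted p = 0.0285 and 0.0413), a setting in which 25.7% of all genes passed.

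Errfi1, a glucocorticoid-induced inhibitor of the EGF receptor, had the smallest spread among controls of the 10 genes (SD 0.0299 on the brightest probe). It read 16.93, 16.94 and 16.89 in control and 16.52, 15.91 and 16.43 in soy livers (NM_133753). The soy arrays were all lower, soy 2 most of all, and the soy mean was 1.55-fold lower (-0.63, SE 0.16, adjusted p = 0.184). Within slide 1 the difference was -0.42 and within slide 3 it was -0.46. Leaving out soy 2 gave -0.44, and no alternative made it pass, the lowest adjusted p being 0.0529.

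The other induced genes did not separate the diets. Tsc22d3, which encodes the leucine zipper protein GILZ, read 15.15, 14.54 and 13.19 in control and 13.71, 13.14 and 13.69 in soy livers (NM_001077364). Control 1 and control 2 were above every soy array, but control 3 was among them. The difference was -0.78 (SE 0.45, adjusted p = 0.568), and the dimmer probe gave -0.65 (SE 0.35, adjusted p = 0.546). It was -1.14 within slide 1 but 0.50 within slide 3, where the single control array is control 3. Without control 1 the difference was -0.35, and without control 3 it was -1.34 (adjusted p = 0.108). Sgk1, a kinase that regulates ion channels and transporters and 1 of whose promoter stretches is shown above, read 11.63, 11.16 and 10.85 against 11.54, 11.08 and 11.68 (NM_011361). Its groups overlapped and differed by 0.22 (SE 0.23, adjusted p = 0.762), with 0.15 within slide 1 and 0.83 within slide 3, and from 0.038 (without control 3) to 0.43 (without control 1) with 1 array left out. Cdkn1a, the cyclin-dependent kinase inhibitor p21, was spread widely in both groups, at 9.21, 7.26 and 8.39 against 7.78, 7.31 and 9.61 (NM_007669). The difference was -0.056 (SE 0.66, adjusted p = 0.984), its sign differed between slide 1 (-0.46) and slide 3 (1.22), and a second probe (NM_001111099) was well above background on 1 array only. The sign also turned without control 1 (0.40), soy 1 (0.17) or soy 2 (0.41), and under the 75th-percentile shift (0.047).

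Lcn13, which the liver secretes and which has been described as lowered by the receptor, read 6.89, 7.69 and 8.84 in control and 8.27, 7.02 and 7.74 in soy livers (NM_153558). It was well above background on 3 control and 2 soy arrays. The order of the arrays followed neither diet, and the difference was -0.13 (SE 0.49, adjusted p = 0.944), 0.98 within slide 1 and -1.10 within slide 3. It was 0.38 without control 3 and 0.19 without soy 2.

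**Figure D2:**
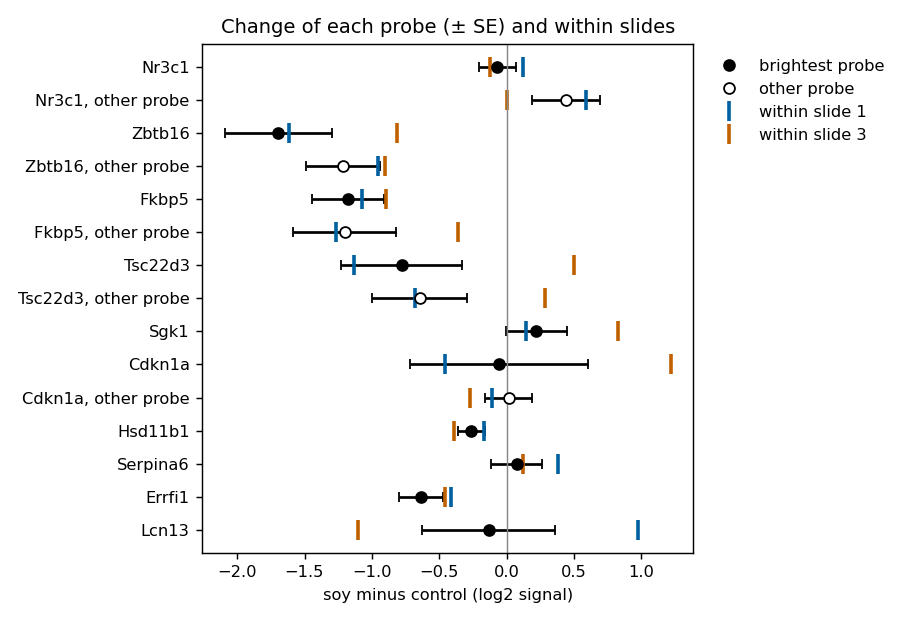
Difference between soy and control (log2 signal, x axis) for the 15 probes of the 10 genes; circles are limma estimates with their SE (filled, brightest probe; open, other probes), and ticks are the differences within slide 1 (blue) and slide 3 (orange). Both probes of Zbtb16 and both of Fkbp5 lie below 0 in both slides, whereas the ticks of the brightest Nr3c1, Tsc22d3, Cdkn1a and Lcn13 probes lie on opposite sides of 0.

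Other genes of the pathway were counted in 6 lists with 74 genes, all on the array. Of these, 7 passed on at least 1 probe and 29 did not overlap on the brightest probe, again beside 0.532% and 20.4% of all genes, and their median difference was -0.21. The lists were chosen with earlier results of these data known, so the counts describe them only. Of the 7 genes, 5 are metabolic targets of the liver. At an unadjusted p under 0.05, limma counted 32 of the 74, beside 14.2% of all genes. These were 14 of 17 metabolic targets, 8 of 16 other induced genes, 4 of 11 inflammatory genes, 3 of 11 chaperones, 2 of 8 handling genes and 1 of 11 coregulators. With slide as a block, only Got1 and Lpin1 of the 7 passed, each on a dimmer probe. Mt1, Pdk4, Igfbp1, Nr1i3 and Tnf did not, with adjusted p of 0.122, 0.101, 0.161, 0.170 and 0.104, while their differences were -4.06, 1.84, -2.49, 0.80 and -1.78.

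Among 11 receptor chaperones and cochaperones none passed, 3 (27.3%, beside 20.4% of all genes) did not overlap, 1 higher and 2 lower in soy, and the median was -0.055. Without control 1 the median was 0.036, with 7 genes higher and 6 not overlapping (54.5%, where 31% of all genes did not overlap in that fit), and without control 2, control 3 or soy 2 it was -0.15, -0.13 or -0.10. The largest differences were those of the heat shock protein Hspa1a, with -1.23 (SE 0.65, adjusted p = 0.532) and overlapping groups, and its cochaperone Dnajb1, with -0.89 (SE 0.30, adjusted p = 0.305) and none. Hspa1a read 12.64 on control 1 and 9.85 to 10.83 on the other controls, and without control 1 its difference was -0.46 and that of Dnajb1 -0.56. Without control 2 Hspa1a gave -1.86. Within slide 1 Hspa1a and Dnajb1 differed by -1.55 and -1.22, and within slide 3 by -0.27 and -0.063. Fkbp4, the relative of Fkbp5 that helps the loaded receptor travel, was chosen after its values were seen. It read 11.93, 11.93 and 11.96 against 12.18, 12.19 and 12.23, a difference of 0.26 (SE 0.088, adjusted p = 0.309), and its dimmer probe gave 0.025 with overlapping groups.

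Of 11 coregulators 0 passed, 2 (18.2%) were higher without overlap, beside 9.66% of all genes, and the median was 0.030. Without control 1 it was -0.062, and without control 2 it was 0.084. Without control 1, 6 of 11 did not overlap in either direction (54.5%, where 31% of all genes did not in that fit). Without control 3 or soy 1 that number was 5 (45.5%, beside 31.6% and 32.2% of all genes). The corepressor Nrip1 was higher on every soy array (0.47, SE 0.11, adjusted p = 0.152), and the histone acetyltransferase Crebbp gave -0.33 (SE 0.27, adjusted p = 0.697), its dimmer probe 0.034. The Crebbp difference was -0.029 without control 2 and -0.63 without control 3, and it was -0.69 within slide 1 and 0.19 within slide 3. Of 8 genes that handle corticosteroids none passed, and the median was 0.046. Akr1c14, a steroid reductase, read 13.86, 14.06 and 14.23 in control and 14.62, 14.82 and 14.98 in soy livers. Its groups did not overlap, and it missed the threshold with 0.76 (SE 0.14, adjusted p = 0.0825), and on its dimmer probe the difference was 0.67 (SE 0.13, adjusted p = 0.104). The mineralocorticoid receptor Nr3c2, which also binds corticosterone, gave 0.39 (SE 0.12, adjusted p = 0.272), and Hsd11b2, which inactivates the hormone, stayed near background on all 6 arrays. Leaving out 1 array gave the handling genes medians from 0.0001 (without control 3) to 0.053 (without control 1).

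The 16 other glucocorticoid-induced genes had a median of -0.51. In soy livers 13 were lower and 3 higher, 6 were lower without overlap and 1 higher without overlap (beside 10.8% and 9.66% of all genes), and 1 passed (beside 0.532%). The gene that passed was the metal-binding protein Mt1, which fell from 17.62, 15.99 and 17.60 to 12.39, 12.90 and 14.02 (-3.97, SE 0.53, adjusted p = 0.0369). Of the fits with 1 array left out it passed only without control 2, and its dimmer probe did not pass (-1.82, adjusted p = 0.385). Its neighbour Mt2 gave -4.65 (SE 0.77, adjusted p = 0.0668). Metallothioneins also respond to metals. The next values were chosen after they were seen. Per1, a clock gene with a response element, read 13.16, 12.63 and 11.57 against 12.09, 10.83 and 11.33, and the groups overlapped (-1.04, SE 0.44, adjusted p = 0.431). Its difference was -0.68 without control 1 and -0.56 with slide as a block. Klf9, a transcription factor, gave -0.29 without overlap (SE 0.14, adjusted p = 0.471), and -0.17 without control 1. Gadd45a, a stress-response gene, went the other way, at 8.41, 8.68 and 7.52 against 9.37, 9.27 and 9.42, with no overlap and a difference of 1.15 (SE 0.27, adjusted p = 0.155). The median of this list was -0.48 within slide 1, -0.20 within slide 3 and -0.40 with slide as a block. Without control 1 it was -0.30.

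Of the 17 liver metabolic targets, 5 passed, 2 up and 3 down, 12 did not overlap, and the median was -0.70, where 0.532% of all genes passed and 20.4% did not overlap. The phosphatidate phosphatase Lpin1 fell by 3.02 (SE 0.31, adjusted p = 0.0170). The aspartate aminotransferase Got1 fell by 2.21 (SE 0.28, adjusted p = 0.0308). The secreted IGF-binding protein Igfbp1 fell too, with a change of -2.50 (SE 0.29, adjusted p = 0.0242). Igfbp1 read 15.14, 14.70 and 14.29 in control and 11.74, 12.17 and 12.73 in soy livers. Pdk4, an inhibitor of pyruvate dehydrogenase, rose by 1.87 (SE 0.18, adjusted p = 0.0149), from 9.02, 8.44 and 8.42 to 10.52, 10.64 and 10.33. The nuclear receptor gene Nr1i3 passed on its dimmer probe alone (0.87, SE 0.12, adjusted p = 0.0427) and was named for that after its values were seen. Genes that the same hormone is known to induce thus stood on both sides of 0. The classical targets Pck1 and Tat, of gluconeogenesis and tyrosine breakdown, were also chosen after their values were seen. Pck1 read 17.81, 17.85 and 17.55 against 17.09, 16.75 and 16.85 (-0.84, SE 0.13, adjusted p = 0.0576), and Tat 16.82, 16.51 and 15.70 against 15.72, 15.50 and 15.53 (-0.76, SE 0.26, adjusted p = 0.324). Pck1 did not overlap, whereas control 3 lay among the soy arrays for Tat, which passed without it (-1.08, adjusted p = 0.0495). The list's median was -0.64 within slide 1 and -0.48 within slide 3. On these brightest probes, with 1 array left out, Pdk4 passed in the 3 fits without a control array and in none without a soy array. Lpin1 failed without soy 2 or soy 3, Igfbp1 passed without control 3 or soy 3 only, and Got1 without control 3 only. On its dimmer probe Nr1i3 passed only without control 3.

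Glucocorticoids are known to lower inflammatory genes. Of 11 such genes 1 passed (beside 0.532% of all genes), the cytokine Tnf, and it was lower in soy, at 10.89, 11.03 and 10.83 after 12.37, 12.33 and 13.04 in control (-1.66, SE 0.19, adjusted p = 0.0254). Its dimmer probe, of the same transcript, read 6.42, 6.63 and 6.62 against 6.36, 6.65 and 6.65, near background on all 6 arrays (-0.0032). The drop of Tnf thus rests on 1 probe, and why the probes differ so much in level was not tested. Tnf passed without control 2 or control 3 and in no other fit with 1 array left out. The adhesion molecule Vcam1 gave -1.03 (SE 0.27, adjusted p = 0.194) without overlap. This was -0.75 without control 1 and -0.76 with slide as a block. On its dimmer probe, well above background on no soy array, the groups overlapped (-0.39, SE 0.15, adjusted p = 0.375). In this list 9 of 11 genes were detected above background throughout at least 1 group. On the brightest probe 8 were lower, 3 of them without overlap, where 10.8% of all genes were, and 1 of the 3, Cxcl2, was well above background on 0 arrays. The median was -0.23, from -0.35 (without control 3) to -0.15 (without soy 1) with 1 array left out, with -0.37 within slide 1 and -0.012 within slide 3.

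**Figure D3:**
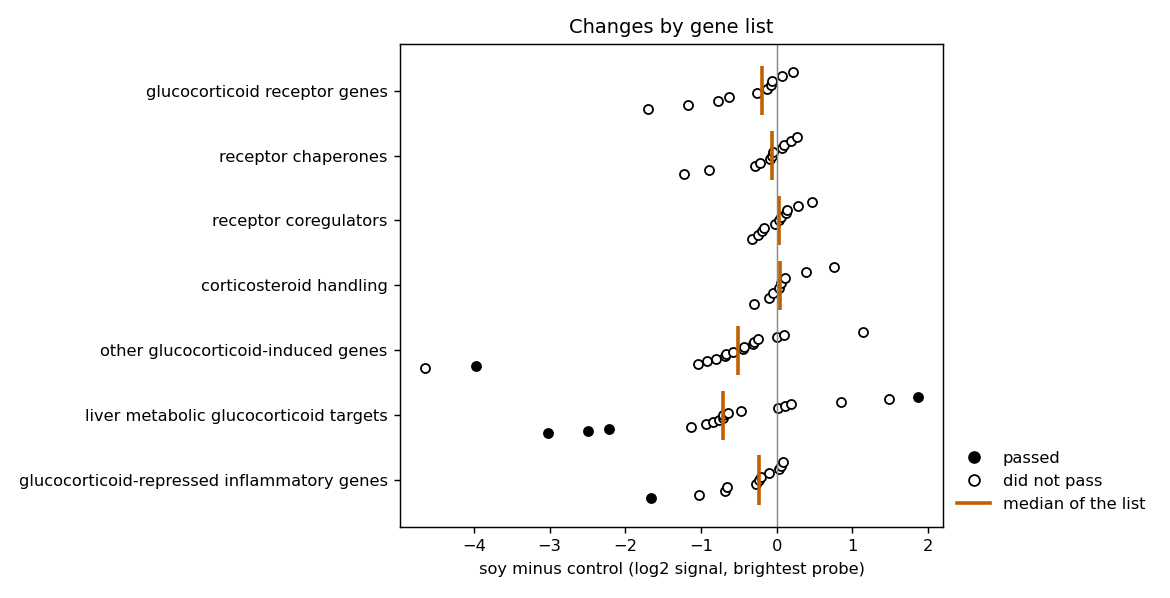
Difference between soy and control (log2 signal of the brightest probe, x axis) for each gene of the 10 receptor genes and the 6 other pathway lists (y axis); filled points passed on that probe, and orange bars are list medians. The medians of the other induced genes (-0.51) and of the metabolic targets (-0.70) lie below those of the chaperones (-0.055) and coregulators (0.030).

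The spread between mice of 1 diet was also described by array. The following counts were chosen after the values were seen and were not tested. Control 1 was the highest of the 6 arrays for 12 of the 16 other induced genes (75%) but for 3 of the 10 receptor genes (30%). Over 15106 genes detected above background throughout at least 1 group and with a value on every array the share was 25.3%. Control 3 was the lowest control array for 10 of the 16 (62.5%) and 6 of the 10 (60%), against 35.9% of all genes, and likewise for 12 of the 17 metabolic targets (70.6%) and 5 of 9 inflammatory genes (55.6%). The spread was wider among controls than among soy arrays for 12 of the 16 (75%) and 7 of the 10 (70%), against 56.7% of all genes. Control 1 was also highest for 8 of the 11 chaperones and cochaperones (72.7%). Leaving out an array can only raise the number of genes whose groups do not overlap. Without control 1 that number stayed at 4 of the 10 receptor genes and 7 of the 16 other induced genes, while the share of all genes went from 20.4% to 31%. The numbers were also 4 and 7 without control 2, soy 2 or soy 3, beside 28.3%, 30.5% and 29% of all genes. Without control 3 the numbers were 5 and 13, beside 31.6% of all genes, and without soy 1 they were 5 and 12, beside 32.2%.

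**Figure D4:**
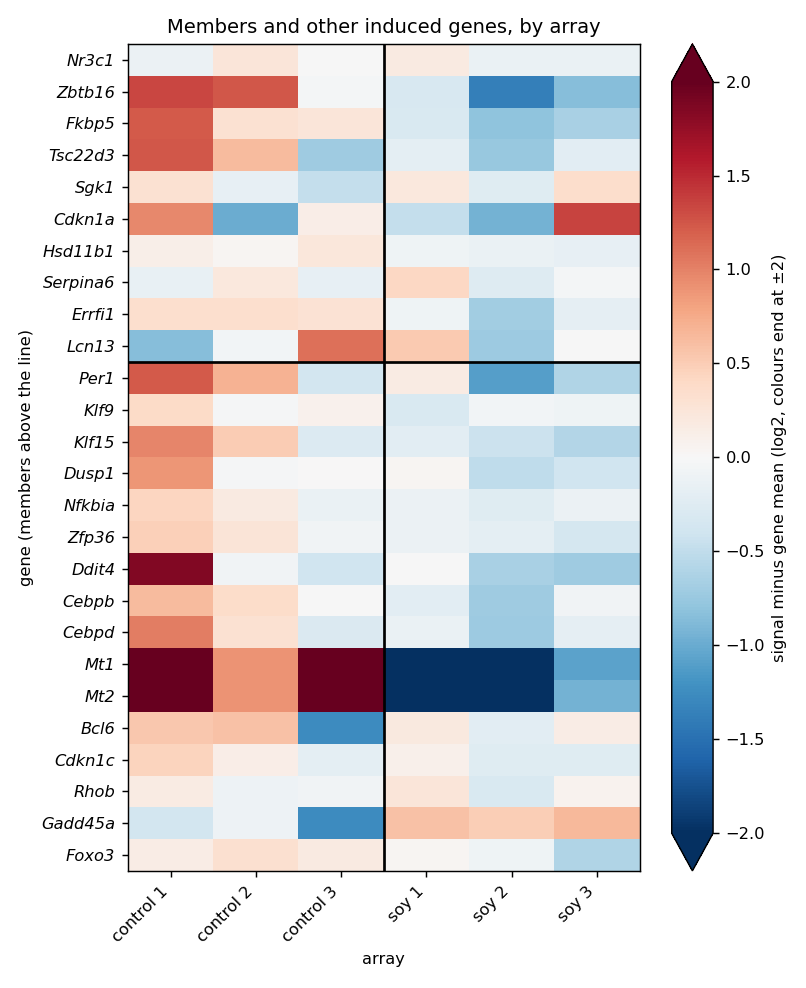
Normalized log2 signal of the brightest probe minus the gene's mean over the 6 arrays (colour, ending at ± 2) for the 10 receptor genes, above the horizontal line, and the 16 other induced genes, below it, with the arrays as columns. Control 1 is the highest array for 3 of the 10 genes above the line and 12 of the 16 below it, and control 3 is the lowest control for 6 and 10.

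The pattern of Fkbp5 over the 6 arrays was compared with 13388 genes outside the lists that were well above background on all arrays, each centred on its own mean. The nearest were Tmprss3, Zfp133-ps and Slc25a51, with root mean square differences of 0.0913, 0.0983 and 0.0996 in log2 signal. Tmprss3, a membrane serine protease, read 15.32, 14.56 and 14.46 in control and 13.87, 13.53 and 13.71 in soy livers. Its groups were apart, with a difference of -1.08 (SE 0.23, adjusted p = 0.122). Zfp133-ps and Slc25a51 differed by -1.03 and -1.30 and did not pass either. All were picked for likeness to Fkbp5, so differences near its own follow from the choice.

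Markers of the liver's cell types were examined on the same arrays, and their part in the results was not tested. Among 5 hepatocyte markers none passed, with differences from -0.25 to 0.46, a median of -0.070 and 3 of them lower. The brightest, Alb, gave -0.14 (adjusted p = 0.692) but -0.037 without soy 3, and its second probe gave -0.018. The summed hepatocyte signal in soy was 0.972 times that in control. The sums were 1.075e+06, 1.109e+06 and 1.123e+06 in control and 1.13e+06, 1.074e+06 and 1.01e+06 in soy livers. None of the 5 endothelial, 5 stellate or 5 cholangiocyte markers passed. The endothelial markers ranged from -0.67 to 0.22 with a median of -0.061 (3 lower, brightest Clec4g with 0.20), and the cholangiocyte markers from -0.16 to 0.20 with a median of 0.12 (2 lower, brightest Spp1 with 0.15). The stellate markers ranged from -0.997 to 0.33 with a median of -0.029 (3 lower, brightest Dcn with -0.083). The lowest of these was the collagen gene Col1a1, chosen after its values were seen, whose groups did not overlap (SE 0.34, adjusted p = 0.318). Without control 1 it gave -0.60, and on its second probe, with -0.86, the groups overlapped. These small medians moved with single arrays. With 1 array left out the hepatocyte median ranged from -0.14 (control 1) to -0.013 (soy 3), the endothelial from -0.10 (soy 3) to -0.013 (soy 1), the stellate from -0.14 (soy 1) to 0.058 (soy 2) and the cholangiocyte from -0.013 (soy 1) to 0.15 (soy 2). The stellate median was also above 0 without control 1 (0.013) or soy 3 (0.0069), and it was 0.28 within slide 1, -0.079 within slide 3 and 0.090 with slide as a block. Within slides 1 and 3 the hepatocyte medians were 0.052 and -0.25, the endothelial -0.15 and 0.026, and the cholangiocyte 0.16 and 0.020. The 5 Kupffer cell markers were all higher without passing (Cd5l, 0.45, adjusted p = 0.538), with a median of 0.34, but without control 1 or soy 3 only 3 were higher (medians 0.11 and 0.20), and without control 3 the median was 0.55. Their sum was 21620 on control 1 and 31430 to 48240 on the other 5 arrays. Of 5 lymphocyte markers, the B cell gene Ms4a1 passed with 0.93 (adjusted p = 0.0394), but not in any fit with 1 array left out nor with slide as a block. It was well above background on 2 control and 3 soy arrays. The brightest of them, Cd3e, gave -0.11, and Cd79a, another B cell gene, gave 0.016 (adjusted p = 0.967), with 2 control and 0 soy arrays well above background but signals of 6.73 and 6.75 in the group means. Cd79a gave -0.0315 without control 2 and 0.042 without control 1, and -0.0091 with slide as a block. With 1 array left out Cd3e ranged from -0.21 (soy 2) to -0.022 (control 1), Cd5l from 0.20 (control 1) to 0.61 (soy 1), Spp1 from 0.020 (soy 3) to 0.35 (control 1), Dcn from -0.14 (control 2) to -0.044 (control 3) and Clec4g from 0.11 (soy 2) to 0.24 (soy 1). At an unadjusted p under 0.05, limma counted 1 of 5 hepatocyte, 2 of 5 stellate, 2 of 5 lymphocyte, 2 of 4 pancreas and 0 endothelial, Kupffer cell, cholangiocyte, red cell and neutrophil, and adipocyte markers, again beside 14.2% of all genes. The 4 red cell and neutrophil markers on the array were all higher without passing, with a median of 0.50, and the brightest, Hba-a1, gave 0.26. The direction of Hba-a1 rested on soy 2: without it the difference was -0.066, and it was -0.13 within slide 1, -0.093 within slide 3 and -0.12 with slide as a block. Without control 1 their median was 0.32, and without control 2 or soy 2 only 3 were higher. Of the adipocyte markers Adipoq and Plin1 were well above background on no array, and the brightest, Lep, gave -0.21, from -0.33 (without control 1) to -0.12 (without control 3). Cfd, chosen after its values were seen and above background on 1 control and 1 soy array, gave 0.41, with -0.22 without soy 1, 1.93 within slide 1 and -0.76 within slide 3. The median of these 4 was -0.075, with 3 lower, and from -0.14 (without soy 1) to -0.066 (without control 2) with 1 array left out. Within slides 1 and 3 it was -0.11 and -0.28, with 3 and 4 lower. The 4 pancreas markers were lower without passing (Cela1, -0.73, adjusted p = 0.191), with a median of -0.42. Within slide 1 their median was -0.57, and within slide 3 it was -0.11, with 3 of 4 lower. With 1 array left out the median ranged from -0.28 (without control 2) to -0.60 (without control 3). Without control 3 all 4 did not overlap, where 31.6% of all genes did not. Over all arrays 1 of 4 did not overlap, beside 20.4% of all genes. Pnlip and Cpa1, chosen after their values were seen, were well above background on 2 control and 0 soy arrays each. Their control and soy means were 6.67 and 6.35 (Pnlip) and 7.14 and 6.63 (Cpa1), far below the 15.13 and 14.39 of Cela1.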

How the data were processed

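RNA from 6 livers, 3 per diet, was measured with 1 array per mouse. The authors scanned the arrays and, per the file headers, deposited output of Feature Extraction 11.5.1.1 with median intensities of the spots and of the background around them, neither corrected nor scaled, and a processed signal intensity from which background had been subtracted. The authors also deposited log2 values for the same arrays, with array medians of 7.33 to 7.34, which differed from the values computed here by 0.0706 at most.

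From the median intensities, background was taken off by normexp with an offset of 50. Control spots were then dropped, quantile normalization was applied before the log2 step, and each probe was the average of its spots other than those marked as outliers. All 56605 probes entered limma 3.58.1 (lmFit and eBayes, R 4.3.3), and p-values were adjusted over them after Benjamini and Hochberg. The thresholds were an adjusted p of 0.05 and fold changes of 1.5 and 0.66, and 1 passing probe sufficed for a gene. The p-values rest on the spread among these mice, which eBayes moderates for each probe with that of all probes. RefSeq accessions gave a symbol to 32994 probes (58.3%) in a GRCm38.p6 gene table. Apart from those of the promoter stretches shown, gene positions are left out because the array design used a different build. Tables were made with Python 3.11.15 and pandas 2.3.3, plots with matplotlib 3.10.9.

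The 10 genes, the lists and the tests were chosen with earlier results of these data known. By rule, the text names the 10 genes by their brightest probe, and from each list the genes that passed on that probe and the 2 with the largest difference among those detected above background throughout at least 1 group. From each marker list it names the brightest gene and any that passed, and for Fkbp5 the 3 genes with the nearest pattern. Genes named beyond the rule are marked as chosen after their values were seen, except Hsd11b2, Cxcl2, Cd79a, Adipoq and Plin1, given as being at or near background. The settings varied were the background step (none, an offset of 16, or the processed signal), the scaling (75th-percentile shift, cyclic loess, or the deposited log2 values), the probes (only those well above background, a gene's mean probe, outlier spots kept), the test (trend and robust eBayes, no fold threshold), the block (slide or replicate number) and the arrays (each dropped in turn). The lists and named list genes with each array left out, and these genes with slide as a block, were added after the data were seen. The microRNA sequencing and qRT-PCR of the study were not used here.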

Additional observations from a re-analysis of the deposited data

How the results depend on the processing

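The direction of Zbtb16, Fkbp5, Tsc22d3, Sgk1, Hsd11b1 and Errfi1 was the same in all 6 fits with 1 array left out and with slide as a block. Trend and robust settings, the probe filter and the replicate block cannot move these estimates. The 122 genes that passed (78 higher, 44 lower) became 184 with trend and robust settings, 48 with an offset of 16, 313 with only probes well above background, 16 with slide as a block and 18 (without soy 2) to 134 (without control 3) with 1 array left out. The processed signal gave 5892 (5332 higher, 615 lower, 55 of them in both directions on different probes), and of the 10 receptor genes it passed 2, where leaving out 1 array gave 0 to 1. It and the 75th-percentile shift moved the median of all genes to 0.0898 and 0.11, but that of genes well above background on all 6 arrays to 0.0016 and 0.012. The 7 other pathway genes that passed became 4 with the mean of a gene's probes, 11 with only probes well above background, 17 with the processed signal, 2 with slide as a block (Got1 and Lpin1) and 0 (without soy 2) to 9 (without control 3) with 1 array left out. Signs turned for Nr3c1 with the mean of its probes (0.18) and slide as a block (0.014), for Cdkn1a with the 75th-percentile shift (0.047) and slide as a block (0.26), and for Lcn13 with slide as a block (0.084). With 1 array left out the differences ranged from -0.17 to 0.035 for Nr3c1, from -0.75 to 0.41 for Cdkn1a, from -0.11 to 0.22 for Serpina6 and from -0.58 to 0.38 for Lcn13. The cause of these shifts was not tested. With a replicate block 51 genes, 0 receptor genes and 3 other pathway genes passed. Deviations of same-numbered arrays correlated at 0.116, -0.0574 and 0.106, and those of differently numbered arrays at -0.2024 to 0.1049. The same-numbered arrays 1 share a slide, as do the arrays 3, so these values cannot decide whether the numbers pair the mice. With slide as a block soy 2, alone on its slide, carries no weight. A dim probe such as that of Lcn13 is limited by signal over background.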
